A study of Mus musculus with 39 samples.

Results

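The plasma cell genes studied here were Prdm1, Xbp1, Irf4, Sdc1, Ell2, Jchain and Mzb1, followed across 39 mouse lymphomas. They were chosen by name as known genes of the plasma cell programme, and every probe set annotated to them was taken. They made up 7 of the 18194 genes measured and 15 of the 45101 probe sets, and the level of a gene is that of its probe set with the highest mean. All levels are log2 values after RMA normalization, and a difference of 1 is a 2-fold difference in signal. Every tumour came from mice of the Eµ-myc genotype, in which an immunoglobulin heavy chain enhancer drives Myc, so that the transgene is active in cells of the B lineage. The labels put all tumours in 1 group, described as a training dataset, with no treatment, no normal B or plasma cells and no tumours without the transgene. RNA came from homogenised tumour tissue on 1 array per tumour, so levels belong to all cells of the tissue, and fewer cells of a type cannot be told apart from less RNA per cell. Whether the tumours are from different mice is not stated, so the p-values refer to the spread among these samples alone.

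A B cell becomes an antibody-secreting plasma cell when a small set of transcription factors takes over its programme. Irf4 starts the switch, Prdm1 encodes Blimp-1, which shuts down genes of B cell identity, and Xbp1 builds the secretory machinery. Xbp1 protein is made from a messenger RNA that the endoplasmic reticulum stress sensor IRE1, encoded by Ern1, splices outside the nucleus, and these arrays were not read for that spliced form. Ell2 encodes an elongation factor that favours the secreted form of the heavy chain, Jchain encodes the chain that joins antibody molecules into polymers, Mzb1 encodes a partner of endoplasmic reticulum chaperones, and Sdc1 encodes CD138, the surface proteoglycan used to sort plasma cells. In turn Bcl6, Bach2 and Pax5 hold a B cell in its earlier state.

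Promoters of Prdm1, Xbp1 and Ell2 are shown because these genes gave the most strongly correlated pairs among the 7. Each runs from 250 bases before to 50 bases after the annotated start, 5′ to 3′ in the direction of transcription, from RefSeq with the build GRCm38.p6. Capitals mark the motif matches found on either strand.
Prdm1 promoter, chr10:44458699-44458998, minus strand: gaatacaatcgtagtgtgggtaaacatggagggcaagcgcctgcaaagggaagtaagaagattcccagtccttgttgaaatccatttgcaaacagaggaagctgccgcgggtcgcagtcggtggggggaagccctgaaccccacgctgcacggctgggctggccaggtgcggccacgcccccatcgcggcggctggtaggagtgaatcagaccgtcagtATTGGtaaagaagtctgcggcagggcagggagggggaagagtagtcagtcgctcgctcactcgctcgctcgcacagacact
Xbp1 promoter, chr11:5520391-5520690, plus strand: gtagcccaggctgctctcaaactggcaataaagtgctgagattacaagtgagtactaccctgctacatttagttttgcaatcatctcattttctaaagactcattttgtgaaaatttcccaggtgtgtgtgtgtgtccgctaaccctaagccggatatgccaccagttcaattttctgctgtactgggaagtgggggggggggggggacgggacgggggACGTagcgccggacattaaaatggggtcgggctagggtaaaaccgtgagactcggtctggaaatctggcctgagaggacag
Ell2 promoter, chr13:75707234-75707533, plus strand: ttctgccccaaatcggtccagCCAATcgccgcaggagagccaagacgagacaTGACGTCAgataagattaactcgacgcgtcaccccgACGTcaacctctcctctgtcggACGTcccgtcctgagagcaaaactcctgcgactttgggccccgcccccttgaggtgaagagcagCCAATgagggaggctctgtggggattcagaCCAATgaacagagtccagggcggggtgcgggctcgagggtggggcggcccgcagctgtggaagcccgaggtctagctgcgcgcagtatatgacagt
The RefSeq table matched 6 of the 7 genes, and Mzb1 is named only. Motifs searched on both strands were the interferon-stimulated response element core (in 3.44% of 32851 promoters of the same length), the ETS-IRF composite element (2.72%), the cAMP response element TGACGTCA (1.79%) and the unfolded protein response element core TGACGTGG (0.676%). The others were the endoplasmic reticulum stress element (0.119%), the E-box CACGTG (7.15%), the core ACGT that also lies within TGACGTCA, TGACGTGG and CACGTG (30.9%), and CCAAT, which also opens the stress element (37.4%). The Ell2 window held 1 TGACGTCA at positions -198 to -191 from the start, 3 ACGT cores, of which the first lies inside it, and 3 CCAAT boxes. The Xbp1 window held 1 ACGT core at -31 to -28, and that of Prdm1 held 1 CCAAT box on the opposite strand at -31 to -27. Jchain had 1 ACGT core and Sdc1 had 1 CCAAT box. The Irf4 window held none of these motifs. A match is a description of the sequence, and no binding was measured.

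Array medians lay between 5.61 and 5.78, and r between arrays, over all probe sets, was 0.889 to 0.991. The label of B lineage lymphoma was checked against B cell markers. Cd79a, which encodes a signalling chain of the B cell receptor, had a median of 9.39 but was at 3.95 in tumour 6, 4.05 in tumour 8, 4.18 in tumour 23, 4.83 in tumour 5 and 5.81 in tumour 19. A score over 12 pan B cell genes (the mean of level minus the gene's mean) was below -1 in these 5 tumours and in tumour 32, and Myc was at 8.19 in tumour 2 against a median of 11.92. These 7 tumours are called the tumours that stand apart, and results that rest on them are given with and without them, that is with 39 and with 32 tumours. Tumour 26 narrowly missed the cut (score -0.98, Cd79a at 6.09) and stays among the 32. Tumours 6, 8 and 23 had the highest levels of the macrophage gene Adgre1 (13.05, 13.13 and 12.56, median 8.36). A score over 15 macrophage genes, made in the same way, was 1.42, 0.77 and 1.14 in them and highest in tumour 2 (1.45). Not every B cell gene was low in tumours 6, 8 and 23. Cd79b was at 12.03, 12.51 and 11.70 there, and Ebf1 was at 10.47 and 10.01 in tumours 6 and 8. Ebf1 was lower in tumour 23 (6.98). Pax5 was low in each of them (5.74, 5.81 and 4.96), as in tumours 5 and 32, against at least 6.49 in all others. Tumours 32, 5 and 19 had the highest levels of the plasmacytoid dendritic cell gene Siglech (12.54, 11.30 and 10.96, median 5.99). Next came tumours 22 (9.75) and 26 (9.52), which stay among the 32. Ccr9, another gene of those cells, was at 11.54 and 10.20 in tumours 32 and 5 but at 5.31 in tumour 19.

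All 7 genes were measured, and each varied from tumour to tumour in its own way. Among all 18194 genes, the SD of Jchain ranked at percentile 99.7, that of Ell2 and Mzb1 at 99.2, Sdc1 at 98.2, Prdm1 at 97.4, Irf4 at 96.1 and Xbp1 at 81.9. The plot of levels by tumour shows the distributions, and levels of different genes are not compared because each probe set has its own response.

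**Figure D1:**
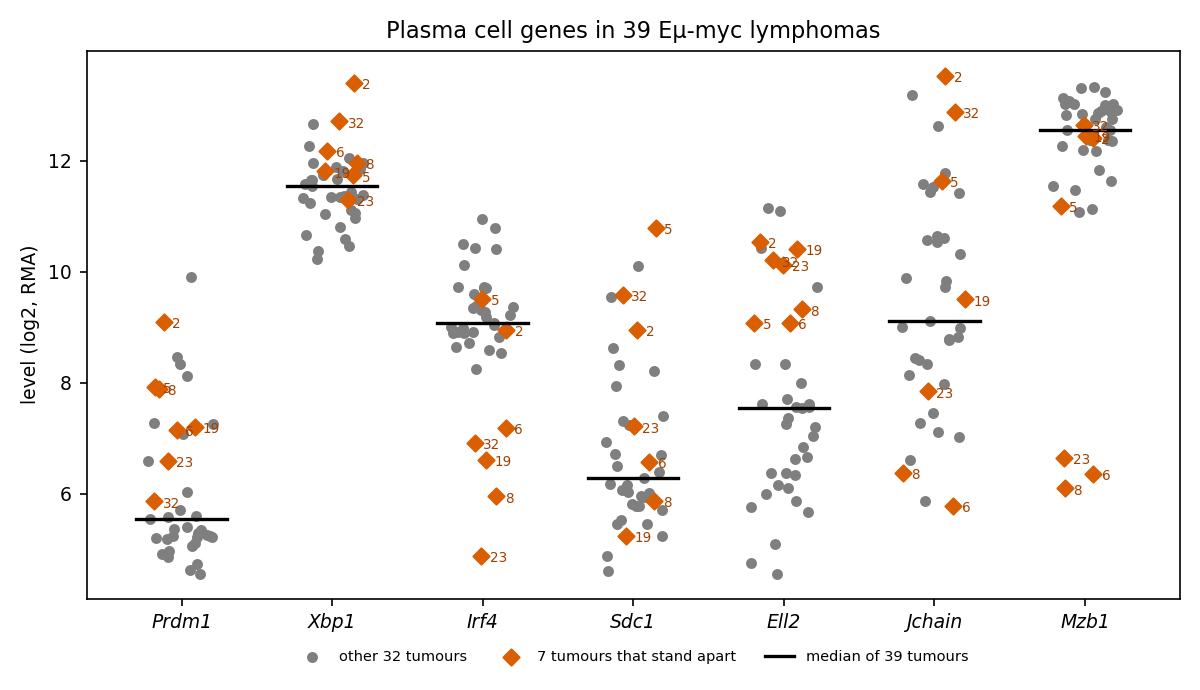
Level (log2, RMA) of each plasma cell gene in 39 tumours, 1 point per tumour; diamonds with tumour numbers mark the 7 tumours that stand apart and bars mark the median. Prdm1 has a tail of high tumours up to 9.91, whereas Irf4 and Mzb1 have a tail of low tumours down to 4.88 and 6.10.

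Prdm1 (chromosome 10, 1 probe set), the repressor that ends the B cell programme, ranged from 4.56 in tumour 28 through a median of 5.55 to 9.91 in tumour 18, with a mean of 6.16 ± 1.38 (SD, n = 39). Its spread was one-sided, with 14 tumours at least 1 above the median and 0 at least 1 below. Tumours 2 (9.10), 13 (8.47), 27 (8.34) and 26 (8.12) followed tumour 18. Xbp1 (chromosome 11, 4 probe sets), the driver of secretory capacity, was the least variable of the genes, with a lowest level of 10.23 in tumour 17, a median of 11.54 and a highest level of 13.40 in tumour 2 (mean 11.53 ± 0.65, SD, n = 39). Only tumours 2, 32 (12.71) and 27 (12.67) lay at least 1 above its median. Its other probe sets followed the one used with r from 0.897 to 0.986 across the 39 tumours. Irf4 (chromosome 13, 2 probe sets), the factor that starts the switch, ranged from 4.88 in tumour 23 through a median of 9.09 to 10.96 in tumour 21 (mean 8.98 ± 1.24, SD, n = 39). The 5 tumours with the lowest Irf4, namely 23, 8 (5.95), 19 (6.61), 32 (6.92) and 6 (7.18), all belong to the tumours that stand apart, and without those 7 the SD was 0.68 over 32 tumours. The other Irf4 probe set, with a mean of 5.99 ± 0.41 (SD, n = 39), correlated with the one used at r = 0.715.

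Sdc1 (chromosome 12, 4 probe sets), the surface marker CD138, ranged from 4.61 in tumour 36 through a median of 6.29 to 10.79 in tumour 5 (mean 6.80 ± 1.5, SD, n = 39). High levels were found in tumours 13 (10.10), 32 (9.59) and 22 (9.55) as well, and its other probe sets gave r from 0.918 to 0.978 with the one used. Ell2 (chromosome 13, 2 probe sets), the elongation factor, spread broadly in both directions, from 4.56 in tumour 17 through a median of 7.55 to 11.14 in tumour 18 (mean 7.68 ± 1.80, SD, n = 39). A total of 11 tumours lay at least 1 above its median and 12 at least 1 below. The other Ell2 probe set disagreed with it, staying at 3.46 ± 0.18 (SD, n = 39) with r = -0.07, so the Ell2 results rest on 1 probe set. Jchain (chromosome 5, 1 probe set), the joining chain of polymeric antibody, ranged from 5.78 in tumour 6 through a median of 9.11 to 13.54 in tumour 2 (mean 9.47 ± 2.06, SD, n = 39). Tumours 27 (13.19), 32 (12.88) and 1 (12.63) were also high, and tumours 14 (5.87) and 8 (6.37) were low.

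Mzb1 (chromosome 18, 1 probe set), the chaperone partner, was high in nearly every tumour, with a median of 12.56 and a highest level of 13.33 in tumour 13 (mean 12.02 ± 1.76, SD, n = 39). Tumours 8 (6.10), 6 (6.35) and 23 (6.65) lay far below the next lowest, tumour 9 at 11.08. These are the tumours with the lowest Cd79a and the highest Adgre1, and without the 7 tumours that stand apart the SD of Mzb1 was 0.62. Whether other cells in those tissues had a part in the low values was not tested.

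The high levels gathered in a few tumours. Tumour 2 was among the 5 highest for 5 of the 7 genes (Prdm1, Xbp1, Sdc1, Ell2 and Jchain), but its Irf4 (8.95) and Mzb1 (12.42) lay just below their medians. Tumour 13 was also among the 5 highest for 5 genes, which were Prdm1, Xbp1, Irf4, Sdc1 and Mzb1, while its Ell2 was 6.17. Tumour 27 was among the 5 highest for 4 genes, and tumours 26 and 32 for 3 each. At the other end, tumour 17 was among the 5 lowest for 4 genes, with Xbp1 at 10.23, Sdc1 at 4.88, Ell2 at 4.56 and Jchain at 7.02. No tumour was among the 5 highest for all 7 genes. Tumour 2 also had the lowest Myc and the highest T cell score of the 39 (2.97, against a median of -0.21).

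Which of the plasma cell genes moved together was asked for all 21 pairs, and 10 of them passed. Tests were 2-sided permutation tests of 100000 draws with Benjamini-Hochberg adjustment over 91 relations in all. Of these 33 passed at an adjusted p under 0.05, 28 of them positive and 5 negative. As a scale from another test, the limma fits below called many genes over 39 tumours. Of all other genes 13.9% rose and 16.1% fell along Prdm1, 11.7% and 13.9% along Irf4, and 13.7% and 14.5% along Xbp1. Passing is therefore not particular to pairs of plasma cell genes. Prdm1, Xbp1, Ell2 and Jchain correlated positively in every pair, and Sdc1 correlated positively with Prdm1, Xbp1 and Jchain. Irf4 passed only with Ell2, with a negative r, and Mzb1 passed with none of the others. By rho the same 10 pairs passed, with rho from 0.432 to 0.707 in the positive ones. The closest pair was Prdm1 and Ell2, with r = 0.703 and rho = 0.649 (n = 39, permutation p = 1e-05 for each, the smallest these permutations can give, adjusted p = 9.1e-05). Xbp1 and Ell2 gave r = 0.683 and rho = 0.707 (n = 39, permutation p = 1e-05 for each, adjusted p = 9.1e-05). Prdm1 and Xbp1 gave r = 0.642 (permutation p = 1e-05, adjusted p = 9.1e-05) and rho = 0.648 (permutation p = 4e-05). Without the 2 tumours farthest from the median of the first gene, these r were 0.624, 0.621 and 0.598. The positive pairs of Sdc1 had r of 0.499 with Prdm1, 0.495 with Xbp1 and 0.555 with Jchain (adjusted p 0.0068, 0.006 and 0.0014). Those of Jchain had r of 0.464 with Prdm1, 0.538 with Xbp1 and 0.486 with Ell2 (adjusted p 0.01, 0.0019 and 0.0071). Prdm1 with Jchain missed the threshold without tumours 18 and 27 (r = 0.39, adjusted p = 0.052), and also without tumours 2 and 18, the farthest from the Prdm1 median (r = 0.362, adjusted p = 0.081).

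**Figure D2:**
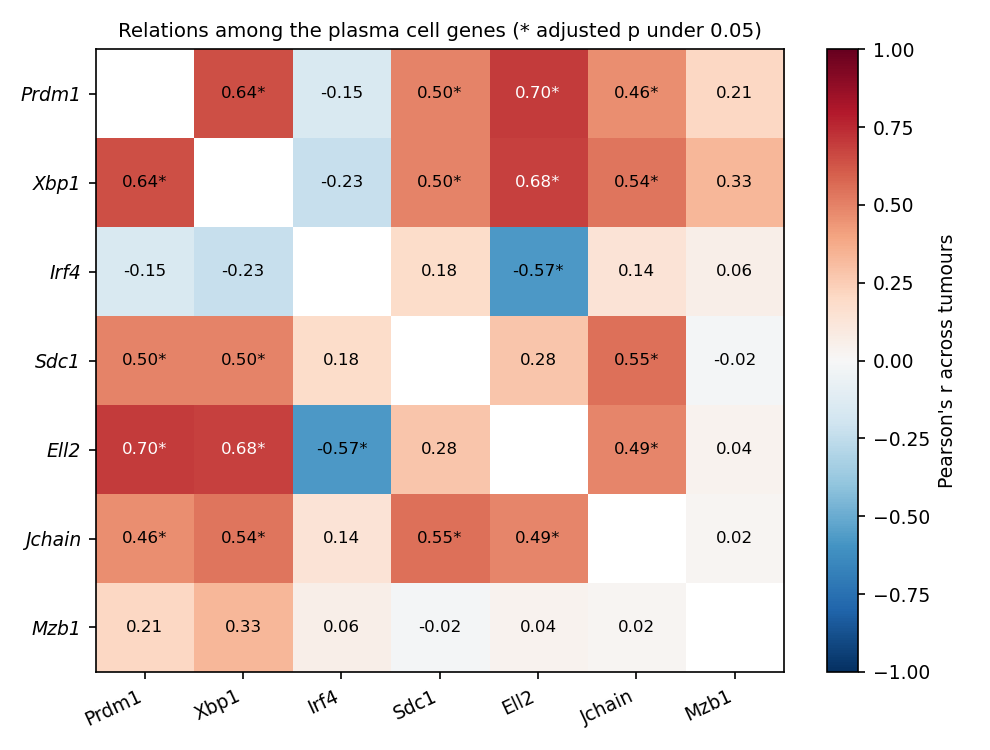
Pearson's r across tumours for each pair of plasma cell genes (39 tumours, or the 36 tumours without 6, 8 and 23 for pairs with Mzb1); stars mark an adjusted p under 0.05. Prdm1, Xbp1, Sdc1, Ell2 and Jchain share positive values, 9 of them starred, while Irf4 with Ell2 is the only starred negative pair at -0.57.

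The only negative pair was Irf4 with Ell2, at r = -0.575 (permutation p = 0.00013, adjusted p = 0.00084) and rho = -0.52 (permutation p = 0.00087) over 39 tumours. Tumours 19, 23 and 32 joined low Irf4 to high Ell2 (10.41, 10.12 and 10.21), whereas tumours 21, 11 and 31 joined high Irf4 to low Ell2 (5.09, 4.75 and 5.76). Without the tumours that stand apart r was -0.423 and the adjusted p 0.051. Irf4 did not pass with Prdm1 (r = -0.154) or Xbp1 (r = -0.231), and Irf4 with Sdc1 passed only without those 7 tumours, at r = 0.183 over 39 and 0.518 over 32 (adjusted p 0.42 and 0.014). By rho Irf4 with Sdc1 did not pass over the 32 tumours (0.411, adjusted p = 0.069). Because Mzb1 split into 3 low tumours and 36 others, its relations were computed within the 36, where r with Irf4 was 0.056 and with Xbp1, the closest, 0.33 (adjusted p 0.86 and 0.11). With the 3 low tumours in, Mzb1 did rise along Irf4 in the limma fit over all 39 (1.17, adjusted p = 7.7e-05). In the 32 tumours Mzb1 with Xbp1 passed at r = 0.485 (adjusted p = 0.024, n = 32). There, Prdm1 itself split into 25 low and 7 high tumours, and within the 25 its r with Ell2 was -0.04, with Xbp1 0.305 and with Sdc1 0.5, of which only Sdc1 passed (adjusted p 0.92, 0.28 and 0.04). These 25 tumours span only the lower part of the Prdm1 range. With all 32 tumours in a limma fit along Prdm1, Ell2 (1.09), Xbp1 (0.34), Sdc1 (0.69) and Jchain (1.11) rose (adjusted p 0.00063, 0.0041, 0.013 and 0.003). Xbp1 with Ell2 (r = 0.632) and Ell2 with Jchain (r = 0.643) passed without the 7 tumours (adjusted p 0.0017 and 0.00073, n = 32).

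Marker scores of B cells and of other cells, and the 3′ minus 5′ difference of control probe sets, were compared with these genes. Of 49 such relations 19 passed. The T cell score followed 5 of the 7 genes, with r of 0.77 for Xbp1, 0.736 for Jchain, 0.679 for Prdm1, 0.639 for Ell2 and 0.54 for Sdc1 (n = 39, adjusted p from 9.1e-05 to 0.0032), and rho from 0.516 to 0.706. All 5 also passed without the tumours that stand apart, with r from 0.501 to 0.754 over 32 tumours, or over the 25 low-Prdm1 tumours for Prdm1 (0.514). The T cell score ran from -1.41 in tumour 10 to 2.97 in tumour 2 and 2.16 in tumour 27, and the defining marker Cd3d ran from 4.97 in tumour 9 to 11.37 in tumour 2. The plasmacytoid dendritic cell score passed with the same 5 genes, with r from 0.501 for Prdm1 to 0.665 for Sdc1 (adjusted p from 0.00017 to 0.0074) and rho from 0.495 to 0.737. Without the tumours that stand apart Xbp1 (r = 0.543), Sdc1 (0.547), Ell2 (0.543) and Jchain (0.538) passed with it (adjusted p from 0.0096 to 0.012), and Prdm1 within its 25 low tumours did not (r = 0.433, adjusted p = 0.11). It ran from -0.8 to 2.8, with tumours 32 and 5 highest. From which cells of the tissue the RNA of the plasma cell genes came was not tested.

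**Figure D3:**
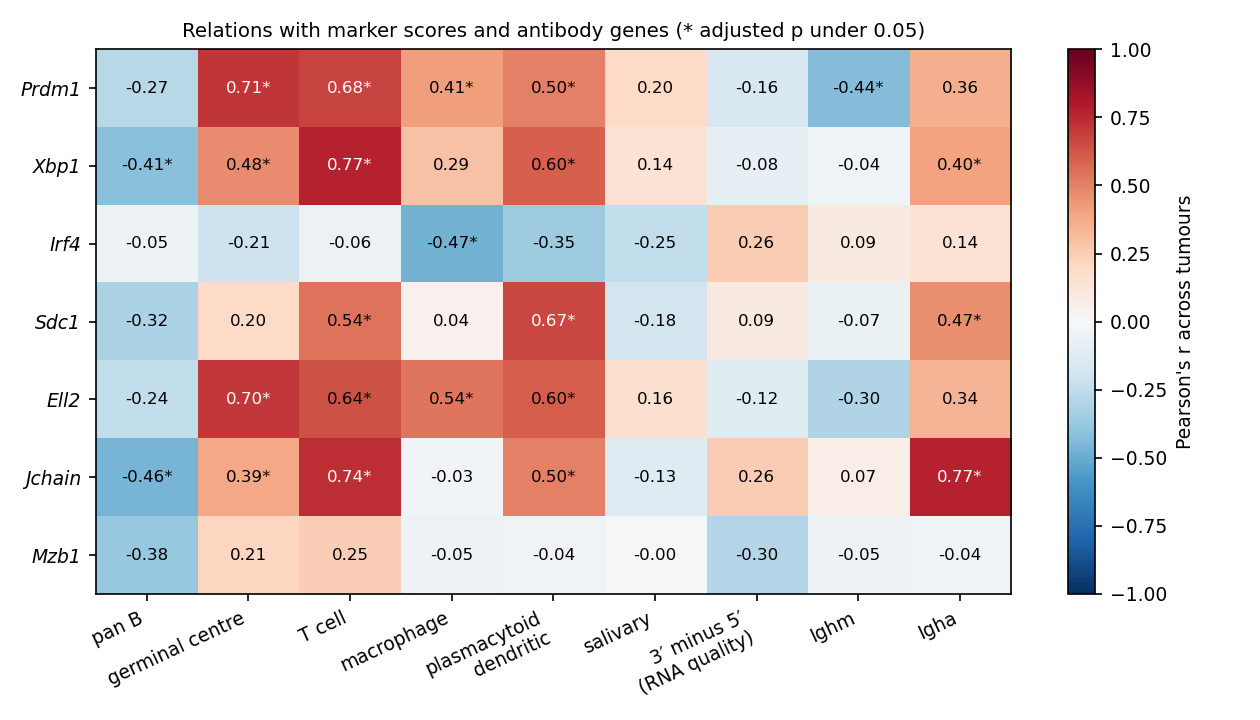
Pearson's r of each plasma cell gene with marker scores, the 3′ minus 5′ difference of control probe sets, Ighm and Igha across tumours (39, or the larger cluster of tumours where a measure was split: 32 for pan B cell, 30 or 28 for the salivary score, 36 for Mzb1); stars mark an adjusted p under 0.05. The T cell column is starred in 5 rows and the Mzb1 row has no star.

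The germinal centre score, over genes of B cells that mature in follicles, passed with Prdm1 (r = 0.712), Ell2 (0.703), Xbp1 (0.476) and Jchain (0.388), with adjusted p from 9.1e-05 to 0.034, and by rho Jchain missed the threshold (0.36, adjusted p = 0.07). Tumours 18 (3.59) and 27 (3.44) lay far above the others, the next being 0.73 in tumour 12. Without these 2 tumours, a choice made after the data were seen, r was 0.668 with Prdm1, 0.747 with Ell2 and 0.544 with Xbp1, which passed (adjusted p 0.00033, 0.00015 and 0.0021). Jchain no longer passed there (r = 0.237, adjusted p = 0.28). Irf4 did, with a negative r (-0.601, adjusted p = 0.00071), which over 39 tumours passed only by rho (-0.423, adjusted p = 0.024, against r = -0.206). The macrophage score passed with Ell2 (r = 0.538), Prdm1 (0.414) and Irf4 (-0.472), with adjusted p of 0.0026, 0.025 and 0.01, and rho was 0.578, 0.308 and -0.394. For Prdm1 (within its 25 low tumours) and Irf4 this was lost without the tumours that stand apart (r = -0.04 and -0.273, adjusted p 0.92 and 0.28), while Ell2 passed there (r = 0.489, adjusted p = 0.024). Within the 32 tumours of the larger pan B cell cluster, Jchain (r = -0.461) and Xbp1 (r = -0.415) were lower where the pan B cell score was higher (adjusted p 0.025 and 0.049). Xbp1 missed the threshold without tumours 18 and 27 (r = -0.399, adjusted p = 0.073). Tumours 5, 6, 8, 19, 23, 26 and 32, with low pan B cell scores, lay outside that cluster, and Jchain there ran from 5.78 in tumour 6 to 12.88 in tumour 32. That cluster holds tumour 2 and not tumour 26, so it differs from the 32 left without the tumours that stand apart. Of the 7 relations with the salivary gland score and the 7 with the 3′ minus 5′ difference, a sign of RNA quality, 0 passed (0 also at an unadjusted p under 0.05), and their r lay between -0.296 and 0.257. The salivary relations were computed without tumours 3, 7, 8, 13, 15, 25, 37, 38 and 39, the 9 with the highest salivary scores. They could therefore not show a relation resting on those tumours.

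Antibody genes were compared next because plasma cells secrete their products. Igha, the heavy chain constant gene of IgA, ranged from 6.80 in tumour 35 through 10.45 to 14.13 in tumour 1. Jchain and Igha gave the strongest such relation, r = 0.769 and rho = 0.768 (n = 39, permutation p = 1e-05 for each, adjusted p = 9.1e-05), and r was 0.769 without the tumours that stand apart and 0.731 without the 2 farthest. Igha also passed with Sdc1 (r = 0.466, rho = 0.552, adjusted p = 0.01), though not without the tumours that stand apart (r = 0.391, adjusted p = 0.069), and with Xbp1 (r = 0.405, rho = 0.396, adjusted p = 0.029). The Xbp1 relation was lost without tumours 2 and 17, the farthest from its median (r = 0.309, adjusted p = 0.15), and without tumours 18 and 27 (r = 0.361, adjusted p = 0.073). Ighm, the constant gene of IgM, was at 8.11 in tumour 18 and at least 12.43 in every other tumour. Its relation with Prdm1 (r = -0.437, adjusted p = 0.024) did not pass by rho (-0.223), and r was -0.292 without tumours 2 and 18 and -0.146 without tumours 18 and 27. With gene levels averaged over probe sets the sign turned (r = 0.236), and Ighm then passed with Jchain (r = 0.691, adjusted p = 0.00011) and Xbp1 (r = 0.553, adjusted p = 0.002), against r of 0.066 and -0.043 with the brightest Ighm probe set. The heavy chain constant genes lie in 1 locus and resemble each other, so signal of other isotypes in these probe sets cannot be told apart. Of the 7 genes 0 passed with the score of their own chromosome (1 at an unadjusted p under 0.05). The closest was Mzb1 with chromosome 18 (r = 0.386, rho = 0.413, adjusted p 0.054 and 0.038, n = 36). Irf4 (r = 0.12) and Ell2 (r = -0.155) were related to chromosome 13 within 33 tumours. Tumours 3, 10, 15, 17, 24 and 25, with the lowest chromosome 13 scores, lay outside that cluster. A relation resting on those tumours could therefore not be seen. Jchain passed with chromosome 5 only without the tumours that stand apart (r = -0.435, adjusted p = 0.04), and not by rho there (-0.345, adjusted p = 0.15).

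The genes most like each member in pattern were named by the highest r over the 39 tumours out of all genes, as a description without a test. For Xbp1 the first was Ern1 (r = 0.862), which encodes the enzyme that splices Xbp1 messenger RNA. Next came Os9 (0.851), a lectin that sends misfolded glycoproteins out of the endoplasmic reticulum, and Saraf (0.825), a regulator of calcium entry into the cell. All 3 were among the 4 closest also without the tumours that stand apart (r = 0.821, 0.817 and 0.81). For Prdm1 they were Laptm5 (0.835), a lysosomal membrane protein of blood cells, Cybb (0.817), the catalytic subunit of the phagocyte NADPH oxidase, and Lpin2 (0.812), a lipid phosphatase, and r was between 0.848 and 0.85 without those tumours. For Ell2 they were Ncf1 (0.869), another subunit of that oxidase, Gng12 (0.853), a G protein subunit, and Rras2 (0.847), a Ras-family GTPase. Without the tumours that stand apart these 3 ranked at 29, 32 and 74, with r of 0.82, 0.818 and 0.786. Those of Jchain were Traf1 (0.779), a signalling adaptor, Igha, and Bcl11b (0.768), a transcription factor of T cells. Those of Sdc1 were Arhgap31 (0.745), Ramp1 (0.741) and Spin1 (0.729). Without the tumours that stand apart, those of Jchain ranked at 18, 6 and 26 and those of Sdc1 at 2, 16 and 6. Irf4 was nearest to Bach2 (0.817), a repressor of plasma cell differentiation, Slamf7 (0.793), a receptor found on plasma cells, and Cep97 (0.789), a centrosomal protein. Their r was 0.488, 0.464 and 0.63 without the tumours that stand apart. For Mzb1 the nearest were Ptprcap, Gimap9 and Rhoh, all lymphocyte genes, and without those tumours they ranked only at 800, 2153 and 1391, with r of 0.396, 0.281 and 0.335.

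Every other gene was then fitted along Xbp1, Prdm1 and Irf4 in turn with limma. A slope is the difference in log2 level for a difference of 1 SD in the regulator, and p-values were adjusted over all 18193 genes tested. Such a slope is an association between tumours and gives no order of events. The same genes and tumours enter all 3 fits, so their lists are not independent of each other.

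Along Xbp1, genes of protein folding, export and degradation in the endoplasmic reticulum rose, and T cell genes rose with them. Of 50 genes of the unfolded protein response and secretory pathway, 24 rose and 0 fell at an adjusted p under 0.05, against 13.7% of all genes that rose and 14.5% that fell, and their median slope was 0.144 against -0.006 over all genes (at an unadjusted p under 0.05, 29 rose and 2 fell). The largest were Sec24d (0.66 ± 0.16, SE), a coat protein of export vesicles, Ero1b (0.47 ± 0.11), an oxidase for disulfide bonds, Edem1 (0.42 ± 0.08), which marks misfolded glycoproteins for removal, and Wfs1 (0.38 ± 0.10), a membrane protein of the endoplasmic reticulum (adjusted p 0.0016, 0.0012, 0.0001 and 0.0025). Over the 32 tumours Edem1 passed (0.37, adjusted p = 0.0076), while Sec24d (0.47), Ero1b (0.35) and Wfs1 (0.09) did not (adjusted p 0.052, 0.062 and 0.54). The chaperones Hspa5 and Hsp90b1 had slopes of 0.22 each (adjusted p 0.0005 and 0.0002, chosen after their values were seen). When the tumours that stand apart were left out 17 of the 50 rose and 0 fell (25 and 1 unadjusted), against 6.04% and 4.86% of all genes.

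Ern1, the source of the enzyme that activates Xbp1, had the clearest slope of the stress sensor and PERK arm list along Xbp1, at 0.62 ± 0.06 (SE, adjusted p = 1.5e-08). With levels averaged over probe sets the slope of Ern1 was smaller, at 0.18 (adjusted p = 1.2e-05). By its brightest probe set Ern1 ran from 6.25 in tumour 9 through 7.38 to 9.61 in tumour 2, which was also the tumour with the highest Xbp1. Of the 13 genes of that list, 2 rose, the other being Creb3 (0.31 ± 0.06, adjusted p = 0.00034), a membrane-bound transcription factor, and 2 fell, Mbtps2 (-0.13) and Mbtps1 (-0.09), the proteases that release such factors (adjusted p 0.036 and 0.041). That is 15.4% of the list in each direction, near the 13.7% and 14.5% of all genes. Of 18 other plasma cell genes 6 rose and 0 fell (at an unadjusted p under 0.05, 7 and 1). They included Creb3l2 (0.65 ± 0.11), a factor of secretory cells, Zbtb20 (0.65 ± 0.16) and Tnfrsf17 (0.49 ± 0.11), which encodes the survival receptor BCMA (adjusted p 3.7e-05, 0.002 and 0.00081). Cd28, the largest at 1.09 ± 0.16 (adjusted p = 7e-06), is also in the T cell list. Of 18 B cell genes that plasma cells silence, 5 rose and 0 fell (8 and 1 unadjusted), led by Bcl6 (1.15 ± 0.19), the master repressor of the germinal centre, Cr2 (0.77 ± 0.23) and Fcer2a (0.70 ± 0.17), receptors of mature B cells (adjusted p 3.5e-05, 0.0091 and 0.0016). Irf8, a factor of B and myeloid cells, had 0.36 ± 0.14 (adjusted p = 0.043). Over the 32 tumours Ern1 (0.42), Creb3 (0.14), Creb3l2, Tnfrsf17, Cd28 and Bcl6 (0.99) passed, and Zbtb20, Cr2, Fcer2a (0.38), Irf8 (0.14), Mbtps1 and Mbtps2 did not (adjusted p from 0.052 to 0.52).

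The marker lists of other cells gave these counts along Xbp1. In the T cell list 10 of 12 genes rose and 0 fell, with a median slope of 0.807, and the genes with the largest positive slopes of all included Cd8b1 (1.52), Ms4a4b (1.31), Ccl5 (1.29) and Cst7 (1.29), genes of T cells and cytotoxic cells, with Cxcl9 (1.35), an interferon-induced chemokine, and Gpr174 (1.26), a receptor of lymphocytes. The largest negative slopes were those of Tmem255a (-1.14), Lrrn4 (-1.14), Reln (-1.12) and Gfi1 (-1.11). Rises were also called for 6 of 15 macrophage genes, 6 of 10 plasmacytoid dendritic cell genes (1 fell), 4 of 9 germinal centre genes, 3 of 12 epithelial genes and 4 of 10 fibroblast genes, where 13.7% of all genes rose. In the pan B cell list 0 of 12 rose and 1 fell. Over the 32 tumours, where 6.04% of all genes rose, rises were called for 10 of 12 T cell, 1 of 15 macrophage, 2 of 10 plasmacytoid dendritic cell, 3 of 9 germinal centre, 4 of 12 epithelial and 3 of 10 fibroblast genes. The pan B cell, T cell, macrophage, plasmacytoid dendritic cell and salivary scores together held 71.6% of the variance of Xbp1. With them as covariates 0 of the 50 secretory pathway genes passed in limma, near the share of all genes (0.632% rose and 0.704% fell). Unadjusted, 7 of the 50 rose and 6 fell, beside 2052 and 1243 of all 18193 genes. Ern1 still passed with the covariates (0.35, adjusted p = 0.022). Of the plasma cell genes themselves, Prdm1, Sdc1, Ell2 and Jchain rose along Xbp1 over 39 tumours without covariates. With the covariates 0 of 6 passed, which is also near the share of all genes. Over the 32 tumours Prdm1 (0.78), Ell2 (1.03), Jchain (1.06) and Mzb1 (0.30) rose (adjusted p 0.0062, 0.0031, 0.0075 and 0.037), and Sdc1 did not pass (0.59, adjusted p = 0.053).

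**Figure D4:**
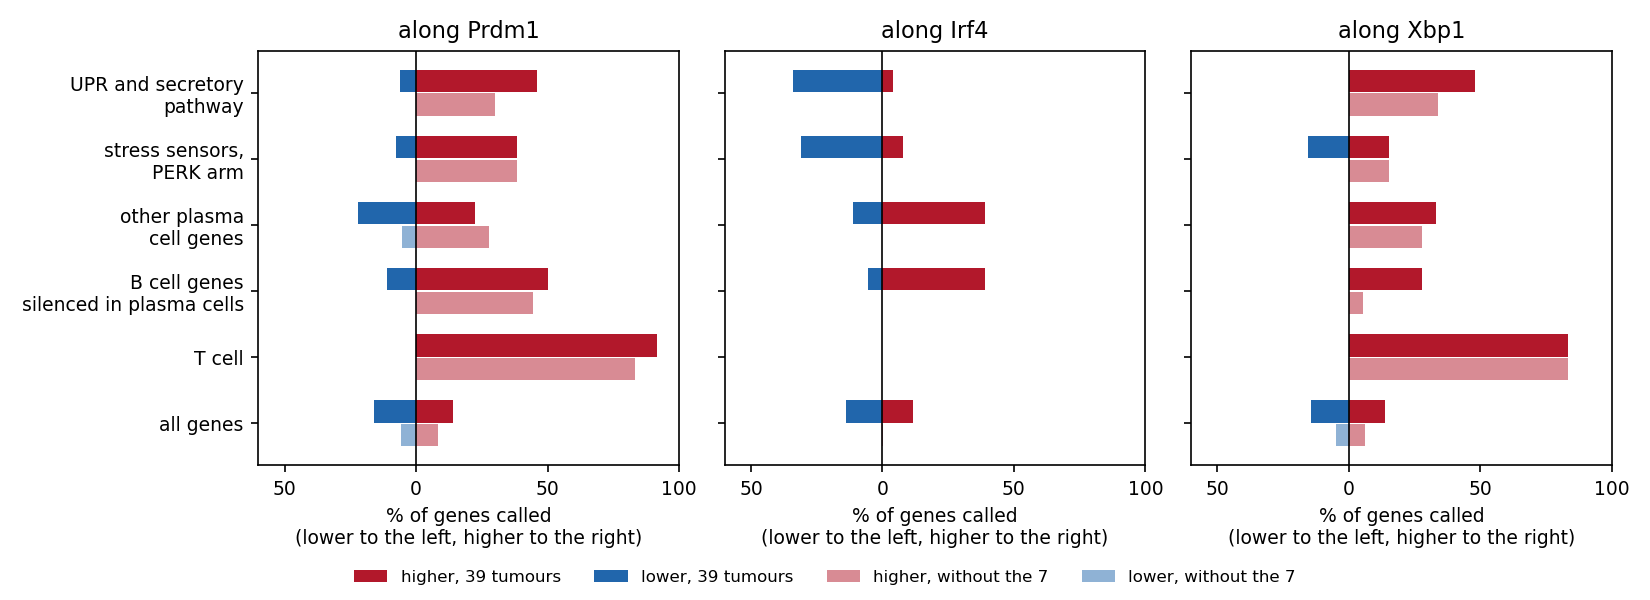
Percent of the genes of each list that rose (right) or fell (left) along Prdm1, Irf4 and Xbp1 at a limma adjusted p under 0.05, over 39 tumours (dark) and without the 7 tumours that stand apart (light), with all genes at the bottom. The secretory pathway bar points right along Prdm1 (46%) and Xbp1 (48%) and left along Irf4 (34%), and no light bar is seen for the lists along Irf4.

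Along Prdm1 genes of the secretory pathway rose as well. Of the 50 secretory pathway genes 23 rose and 3 fell, against 13.9% and 16.1% of all genes, with a median slope of 0.134 against -0.017. The largest were Sec24d (0.67 ± 0.16), Ero1b (0.64 ± 0.08), Creld2 (0.43 ± 0.11), a stress-induced chaperone, and Edem1 (0.40 ± 0.08), with adjusted p of 0.0016, 2e-06, 0.0026 and 0.00036. In the 32 tumours 15 rose and 0 fell (21 and 2 unadjusted), against 8.2% and 5.75% of all genes. In the stress sensor and PERK arm list 5 of 13 rose and 1 fell, among them Ern1 (0.53 ± 0.08, adjusted p = 1.4e-05), Chac1 (0.29 ± 0.09, adjusted p = 0.013), Creb3 (0.28 ± 0.07, adjusted p = 0.0019) and Ddit3 (0.24 ± 0.07, adjusted p = 0.015), the last a factor of the late stress response. Over the 32 tumours Ddit3 did not pass (0.11, adjusted p = 0.21). With levels averaged over probe sets Ern1 had 0.14 (adjusted p = 0.0014), and Ddit3 missed the threshold (0.16, adjusted p = 0.054).

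Of the 18 B cell genes that plasma cells silence, 9 rose and 2 fell along Prdm1 over 39 tumours (50% and 11.1%, against 13.9% and 16.1% of all genes). Without tumours 18 and 27, the highest in the germinal centre score, 3 rose and 6 fell (16.7% and 33.3%), against 15.5% and 16.7% of all genes. Bcl6, whose product and Blimp-1 repress each other's genes, rose by 1.33 ± 0.16 per SD (SE, adjusted p = 8.6e-07), and its highest tumours were 18 (11.14), 27 (10.91), 2 (10.23) and 8 (9.96), with Prdm1 at 9.91, 8.34, 9.10 and 7.89. It rose also without the tumours that stand apart (1.14, adjusted p = 1.2e-05) and with the 5 scores as covariates (1.01, adjusted p = 0.046). Cr2 (0.77 ± 0.23, adjusted p = 0.009) and Fcer2a (0.62 ± 0.17, adjusted p = 0.0063) rose, whereas Ebf1 (-0.56 ± 0.21, adjusted p = 0.034), an early B cell factor, fell, and of these only Ebf1 missed the threshold over the 32 tumours (-0.42, adjusted p = 0.072). Without tumours 18 and 27 Cr2 (0.21) and Fcer2a (0.43) did not pass (adjusted p 0.42 and 0.05), and neither did Chac1 (0.16, adjusted p = 0.17). Pax5 was at -0.26 ± 0.12 and did not pass (adjusted p = 0.12, chosen after its value was seen). Of 18 other plasma cell genes 4 rose, among them Cd28 (1.01 ± 0.17, adjusted p = 4.8e-05) and Zbtb20 (0.85 ± 0.13, adjusted p = 1.8e-05). A further 4 fell, among them Pou2af1 (-1.28 ± 0.44, adjusted p = 0.026), a coactivator of immunoglobulin genes, and Cd93 (-0.69 ± 0.18, adjusted p = 0.0042), a surface protein of long-lived plasma cells. Neither passed without the tumours that stand apart (-0.35 and -0.46, adjusted p 0.19 and 0.093). Over 39 tumours 22.2% of the other plasma cell genes rose and 22.2% fell, against 13.9% and 16.1% of all genes.

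The largest positive slopes along Prdm1 were those of Ncf1 (1.54) and Cybb (1.42), the oxidase subunits, Rgs13 (1.52), a germinal centre gene, Cxcl9 (1.5), Ly6k (1.47) and Cd8b1 (1.42). The largest negative ones were those of Gfi1 (-1.42), a repressor active in blood cell development, Lrrn4 (-1.42), Vpreb3 (-1.41), a gene of immature B cells, and Gk5 (-1.28). The T cell list had 11 of 12 genes that rose and 0 that fell, the germinal centre list 7 of 9 and 0, the macrophage list 7 of 15 and 1, and the plasmacytoid dendritic cell list 5 of 10 and 1. Of 12 pan B cell genes 1 rose and 4 fell, of 12 epithelial genes 1 rose, and of 10 fibroblast genes 5 rose. Beside these counts, 13.9% of all genes rose and 16.1% fell over the 39 tumours. Without tumours 18 and 27, 3 of the 9 germinal centre genes rose, with a median slope of 0.13 in place of 0.58, and Rgs13 did not pass (0.75, adjusted p = 0.08). The 5 scores held 62.4% of the variance of Prdm1. With them as covariates 0.621% of all 18193 genes rose and 0.104% fell (850 and 522 unadjusted), and Cybb still passed (0.75, adjusted p = 0.0046). Near that share, 0 of the 50 secretory pathway genes passed in limma (1 rose and 3 fell unadjusted). Prdm1 itself was followed by Xbp1 (0.42), Sdc1 (0.75), Ell2 (1.27) and Jchain (0.96) over 39 tumours, and all 4 rose without the tumours that stand apart (0.34, 0.69, 1.09 and 1.11, adjusted p 0.0041, 0.013, 0.00063 and 0.003). None of the 6 passed with the covariates, which is also near the share of all genes.

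**Figure D5:**
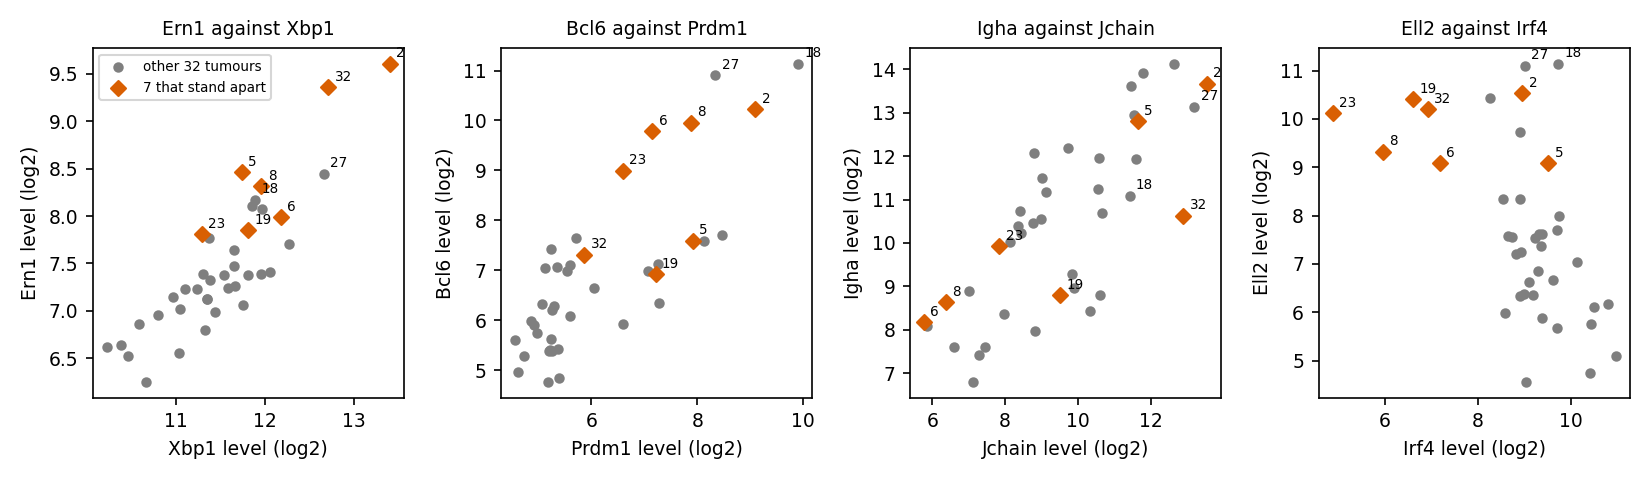
Levels (log2) of Ern1 against Xbp1, Bcl6 against Prdm1, Igha against Jchain and Ell2 against Irf4, 1 point per tumour (39); diamonds mark the 7 tumours that stand apart and numbers name tumours. Ern1 rises with Xbp1 up to tumour 2 (9.61), Bcl6 is highest in tumours 18 and 27 (11.14 and 10.91), and Ell2 is lower where Irf4 is high.

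Along Irf4 the pattern turned the other way and rested on the tumours that stand apart. Of the 50 secretory pathway genes 2 rose and 17 fell, against 11.7% and 13.9% of all genes, with a median slope of -0.1 against -0.004. The largest that fell were Wfs1 (-0.35 ± 0.10), Ssr4 (-0.33 ± 0.04), a subunit of the translocon-associated complex, and Sel1l (-0.29 ± 0.07), an adaptor for degradation, whereas Syvn1 (0.30 ± 0.08), the ubiquitin ligase that works with Sel1l, rose (adjusted p 0.0082, 3.5e-06, 0.0013 and 0.0026). In the stress sensor and PERK arm list 1 of 13 rose, Eif2ak3 (0.25, adjusted p = 0.0015), which encodes PERK itself. A further 4 fell, among them Creb3 (-0.34), Ern1 (-0.29) and Ddit3 (-0.26), with adjusted p of 5.1e-05, 0.041 and 0.0054. With levels averaged over probe sets Ern1 did not pass (-0.06, adjusted p = 0.28). Of 18 other plasma cell genes 7 rose and 2 fell. Pou2af1 (2.17 ± 0.34), Slamf7 (1.21 ± 0.15), Ikzf3 (0.97 ± 0.18) and Cxcr4 (0.86 ± 0.14) led those that rose (adjusted p 1.6e-05, 1.3e-06, 0.00014 and 2.1e-05). Of the 18 B cell genes that plasma cells silence 7 rose and 1 fell, with Bach2 (1.55 ± 0.18), Cd22 (0.86 ± 0.17) and Ebf1 (0.66 ± 0.20) rising and Spi1 (-0.59 ± 0.09), a factor also of myeloid cells, falling (adjusted p 2.4e-07, 0.00034, 0.012 and 1.5e-05).

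Beside these lists, 8 of 12 pan B cell genes rose along Irf4 and 8 of 15 macrophage genes fell, with 0 in the opposite direction in each list. Of all genes 11.7% rose and 13.9% fell. In the T cell list 0 of 12 passed in limma (2 fell unadjusted), 2 of 10 plasmacytoid dendritic cell genes and 1 of 12 epithelial genes fell, 1 of 9 germinal centre genes rose and 1 fell, and 0 of 10 fibroblast genes passed (4 fell unadjusted). The largest positive slopes after Pou2af1 were those of Reln (1.80), Bach2, Vpreb3 (1.53), Cd24a (1.43) and Gfi1 (1.37). The largest negative ones were those of Siglecf (-1.71), Ebi3 (-1.61), Prickle1 (-1.46) and Itgam (-1.45), of which Siglecf and Itgam are surface proteins of myeloid cells. Among the plasma cell genes Mzb1 rose (1.17 ± 0.21, adjusted p = 7.7e-05) and Ell2 fell (-1.04 ± 0.24, adjusted p = 0.0011). The salivary gland list had 0 of 13 genes that passed in any of the 3 fits (0 unadjusted). When the tumours that stand apart were left out, 7 of all genes rose (0.0385%) and 1 fell (0.0055%). Unadjusted, 889 rose and 769 fell. None of the lists or plasma cell genes held a gene that passed. Of the 50 secretory pathway genes 1 rose and 12 fell unadjusted, with a median slope of -0.059 against 0.005 over all genes. Mzb1 then had a slope of 0.07 (adjusted p = 0.91), Pou2af1 of 0.36 (adjusted p = 0.55) and Bach2 of 0.42 (adjusted p = 0.24). The SD of Irf4, the unit of the slope, was then 0.68 in place of 1.24. With the 5 scores as covariates, which held 54.5% of its variance, 0 genes rose and 1 fell, 0.0055% (610 and 723 unadjusted), and that gene was Siglecf (-1.17, adjusted p = 0.012).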

How the data were processed

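Values were measured in 39 tumours with 1 array each, all in 1 group. Each deposited value is a log2 level of 1 probe set. Per the submitters' processing notes the authors used RMA and affy, and the versions were not given. RMA subtracts background, gives all arrays the same distribution of values and summarises probes, which hides changes of total RNA and compresses dim genes. That the scale is log2 was read from the values.

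The platform annotation named 1 gene for 34958 probe sets and several for 932, and 34754 of the former matched a gene by Entrez identifier, with 0 symbols changed. No sample column was left unused (0).

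The 7 genes, the marker and pathway lists, the tests and the alternatives were chosen with earlier results of these data known, so no count is independent support. Where a mixture of 2 normal components of equal variance (mclust 6.1.1) improved the BIC by over 10 and left 3 or more tumours in the smaller component, relations were computed within the larger one. A marker score is the mean of level minus gene mean over the measured genes of a list, members left out. Genes were fitted with limma 3.58.1 in R 4.3.3 (lmFit, eBayes with trend, 2-sided, adjusted p under 0.05). On simulated data for the fit along Prdm1, with 18193 genes of which 200 changed, 72.9%, 93.7% and 97% were recovered at slopes of 0.25, 0.5 and 1. Along Irf4 these were 62.9%, 87.3% and 97.3%, and along Xbp1 76.1%, 85.2% and 98.6%.

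Named genes are the members, the 3 closest genes of each, and in each fit the 6 largest positive and 4 largest negative slopes and the 4 largest called slopes of each pathway list, passing over unnamed transcripts. Alternatives were leaving out the tumours that stand apart (pan B cell score under -1 or Myc under 10), the mean of all probe sets, genes above the median level, the 5 scores as covariates, rho in place of r, leaving out the 2 farthest tumours, and, added after the data were seen, leaving out tumours 18 and 27. The number of arrays limits the precision.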

Additional observations from a re-analysis of the deposited data

How the results depend on the processing

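No paired analysis was possible because all tumours form 1 group. Counts of genes along a regulator moved most. Without the tumours that stand apart 1492 rose and 1047 fell along Prdm1, 7 and 1 along Irf4, and 1099 and 885 along Xbp1. With the 5 scores as covariates the counts were 113 and 19, 0 and 1, and 115 and 128. Among genes above the median level, where fewer were tested, 1645 rose along Prdm1 and 1572 along Xbp1. Relations with Ighm and Igha numbered 2 without the 2 farthest tumours and 2 without tumours 18 and 27, and those with the own chromosome 1 without the tumours that stand apart (Jchain with chromosome 5, r = -0.435) and 1 by rho (Mzb1). The SD of Irf4 was 0.678 without those tumours and 0.783 with the mean of its probe sets, that of Ell2 0.9 with the mean, and that of Mzb1 0.621 without them.

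Among relations and named slopes that passed in at least 1 of the settings compared, signs turned as follows. Without the tumours that stand apart and also within the 25 low-Prdm1 tumours of the rest, so with both choices changed, r was -0.0436 for Prdm1 with Ell2 and -0.0362 with the macrophage score. Without the tumours that stand apart alone, slopes were -0.109 (Gfi1), -0.044 (Ikzf3) and -0.129 (Cd22) along Irf4 and 0.301 (Mzb1, adjusted p 0.037) along Xbp1. With the mean of all probe sets, Prdm1 with Ighm was 0.236. With the covariates, slopes were -0.007 (Creb3) and 0.122 (Ebf1) along Prdm1, -0.057 (Syvn1) along Irf4, and along Xbp1 -0.019 (Jchain), -0.007 (Gpr174), -0.103 (Cd8b1), 0.51 (Reln), -0.063 (Sec24d), -0.073 (Ero1b) and -0.255 (Irf8). Members that passed in neither setting turned too: without the tumours that stand apart, Mzb1 (0.233) and Irf4 (0.08) along Prdm1 and Prdm1 (0.155) and Jchain (-0.14) along Irf4, and with the covariates Irf4 (0.49) along Prdm1, Prdm1 (0.45) and Xbp1 (0.032) along Irf4, and Irf4 (0.098) and Mzb1 (0.041) along Xbp1. The cause was not tested in any of these.

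Of 33 relations that passed, 23 kept direction and call without the tumours that stand apart (those of Prdm1 within its 25 low tumours), 26 without the 2 farthest, 28 without tumours 18 and 27, 32 with the mean of probe sets and 30 by rho. The same was counted for named slopes, but a slope that passed in neither setting counted as kept, whatever its sign. Of 94 named slopes 12 were kept with the covariates and 51 without the tumours that stand apart. With the mean of probe sets 91 were kept, and 88 without tumours 18 and 27, as were all 75 tested above the median level. Array number and compression of dim signal limit what could be seen.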
